A study of Mus musculus with 12 samples.

Results

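The granule cells of the dentate gyrus are the principal neurons of the first relay of the hippocampus: they receive the perforant path from the entorhinal cortex and send their axons, the mossy fibres, to mossy cells and to the pyramidal cells of CA3. Their layer is densely packed and has a set of transcripts that the neighbouring CA fields carry at low levels or lack, so that in RNA from whole hippocampus such transcripts mark the granule cell layer. Some of these transcripts code for proteins of the mossy fibre synapse, others for proteins of the cell surface, of calcium buffering or of metabolism.

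Described here are 7 such marker genes, chosen by name from the genes known to mark these cells: C1ql2, C1ql3, Dsp, Tdo2, Calb1, Npnt and Plk5. They are 7 of the 44760 genes present in both deposited tables, and all 7 passed the filter on low counts at both ages. The samples were hippocampi of male APP/PS1 mice, which carry the APPswe and PS1dE9 transgenes on a C57BL/6 (N9B6) background, overexpress mutant amyloid precursor protein together with presenilin 1 lacking exon 9, and deposit amyloid plaques; both transgenes of this line are known to be driven by the mouse prion protein promoter. Each mouse had a pump under the skin for 14 days. The 4 groups, with 3 libraries each, were 18-month nicotine, 18-month saline, 7-month nicotine and 7-month saline, and the nicotine pumps held nicotine hydrogen tartrate at a labelled 48 mg/kg/h. All 12 libraries came from transgenic males, so nothing here compares these mice with mice that lack the transgenes. The labels do not say whether a library is 1 animal, and p-values measure the spread between libraries.

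Total counts were 21260068 to 23715015 per library at 18 months and 25071195 to 29245972 at 7 months. The ages are separate tables, and their libraries differ in make-up: transcripts over 5000 nt took 36% to 36.9% of counts at 18 months and 23.2% to 24.1% at 7 months, apart from 7-month saline library 2 with 32.5%. Malat1, a nuclear noncoding RNA, had 5160 to 6310 CPM at 18 months and 282 to 384 CPM at 7 months. Rn18s-rs5, a ribosomal RNA entry, had 21800 to 27400 CPM at 18 months. At 7 months it had 8310 CPM in nicotine library 3, 18100 CPM in saline library 3 and 451 to 712 CPM in the others. Age and library preparation therefore cannot be told apart in these data. All 18 other granule cell genes, all 9 CA1 genes and all 7 CA3 genes that were looked up passed the filter on low counts at both ages. The 12 choroid plexus genes, of which 8 passed that filter at 18 months, varied between libraries within each group: their summed level was 25.9 to 1550 CPM in 18-month nicotine libraries, 22.1 to 95.4 CPM in 18-month saline libraries, 59.3 to 6230 CPM in 7-month nicotine libraries and 131 to 1640 CPM in 7-month saline libraries. Levels are CPM, counts relative to the size of the library after TMM scaling of all 12 together. In bulk tissue, fewer granule cells in the dissected piece and less RNA of a gene per granule cell cannot be told apart.

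The genes lie on 6 chromosomes of GRCm38. C1ql2 is at chr1:120340582-120343174 on the plus strand, C1ql3 at chr2:13003457-13011806 on the minus strand, Dsp at chr13:38151294-38198577 on the plus strand, Tdo2 at chr3:81957090-81976202 on the minus strand, Calb1 at chr4:15881264-15908064 on the plus strand, Npnt at chr3:132881745-132950291 on the minus strand and Plk5 at chr10:80356459-80365489 on the plus strand. All 7 are protein coding. Their longest transcripts span 2000 nt in C1ql2, 2112 nt in Plk5, 2535 nt in C1ql3, 3431 nt in Tdo2, 4222 nt in Calb1, 4619 nt in Npnt and 9592 nt in Dsp. Exons of C1ql3 share 1547 bases with Gm37811 and 80 bases with Gm37824, and exons of Dsp share 499 bases with Gm10129, each on the opposite strand. The strand setting of the counting is not given in the sources used here, so sense and antisense reads over those bases cannot be told apart.

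The stretches of 250 bases before the start site are shown for the 4 genes whose RefSeq and GENCODE starts are the same base, because each of these had its highest 18-month value in the same library, as given below, which C1ql3 and Tdo2 did too. The sequences are from RefSeq on GRCm38.p6, where 6 of the 7 genes have an entry, and are printed 5′ to 3′ along the gene's own strand. Capitals mark GC boxes, searched as GGGCGG on both strands. The windows are chr1:120340332-120340581 (plus strand) for C1ql2, chr13:38151044-38151293 (plus strand) for Dsp, chr3:132950292-132950541 (minus strand) for Npnt and chr10:80356209-80356458 (plus strand) for Plk5.
C1ql2: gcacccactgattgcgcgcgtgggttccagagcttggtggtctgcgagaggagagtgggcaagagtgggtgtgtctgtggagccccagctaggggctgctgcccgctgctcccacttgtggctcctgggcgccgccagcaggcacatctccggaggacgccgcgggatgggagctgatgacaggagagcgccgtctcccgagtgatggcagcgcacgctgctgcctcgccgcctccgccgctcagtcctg
Dsp: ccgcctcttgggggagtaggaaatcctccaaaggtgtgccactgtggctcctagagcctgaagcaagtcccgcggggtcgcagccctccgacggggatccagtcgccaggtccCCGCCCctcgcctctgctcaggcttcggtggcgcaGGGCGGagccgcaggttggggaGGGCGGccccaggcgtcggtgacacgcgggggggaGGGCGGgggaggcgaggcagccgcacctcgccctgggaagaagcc
Npnt: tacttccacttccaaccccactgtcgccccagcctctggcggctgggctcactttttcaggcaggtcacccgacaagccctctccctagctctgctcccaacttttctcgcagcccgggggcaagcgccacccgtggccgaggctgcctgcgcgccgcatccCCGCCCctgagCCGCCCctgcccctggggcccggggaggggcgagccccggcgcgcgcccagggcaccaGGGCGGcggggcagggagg
Plk5: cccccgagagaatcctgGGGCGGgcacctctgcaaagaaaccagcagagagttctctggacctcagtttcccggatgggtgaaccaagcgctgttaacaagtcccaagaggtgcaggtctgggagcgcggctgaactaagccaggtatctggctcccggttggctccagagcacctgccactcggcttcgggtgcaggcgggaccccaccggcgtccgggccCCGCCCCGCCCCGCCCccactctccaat
GC boxes numbered 4 in the Dsp window, 3 in the Npnt window, 4 in the Plk5 window, the last 3 of them overlapping by 1 base each, and 0 in the C1ql2 window, and 32.7% of the 32851 RefSeq windows of this length held at least 1. An E-box (CAGNTG, both strands) was found once in the windows shown, in that of Plk5 and apart from its GC boxes, against 44.8% of all windows. Npnt has a second RefSeq start, whose window is not shown and held 2 E-boxes and 0 GC boxes. The cyclic AMP response element (TGACGTCA) was found in none of the 4 windows and in 1.5% of all windows. These are matches of letters only.

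C1ql2 and C1ql3 are secreted C1q-like proteins that granule cells release at mossy fibre synapses, where they are known to bind neurexins and kainate receptors. C1ql2 had 71.0, 54.7 and 86.9 CPM in the 18-month nicotine libraries 1, 2 and 3, 47.8, 51.5 and 56.3 CPM in the 18-month saline libraries, 75.6, 74.8 and 78.0 CPM in the 7-month nicotine libraries and 95.6, 48.2 and 102 CPM in the 7-month saline libraries. The 7-month nicotine libraries lay close together, while 7-month saline library 2 had 0.487 times the mean of the other 2 saline libraries of that age. C1ql3 had 138, 112 and 158 CPM in the 18-month nicotine libraries, 104, 117 and 114 CPM in the 18-month saline libraries, 111, 131 and 132 CPM in the 7-month nicotine libraries and 131, 123 and 128 CPM in the 7-month saline libraries. Its groups overlapped within each age under nicotine and saline, and 7-month saline library 2 was near its group, at 0.946 times the mean of the other 2.

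Dsp codes for desmoplakin, which links the adhesion molecules of desmosomes to intermediate filaments. It had 118, 38.1 and 158 CPM in the 18-month nicotine libraries, 80.7, 68.4 and 68.7 CPM in the 18-month saline libraries, 31.7, 44.1 and 36 CPM in the 7-month nicotine libraries and 43.8, 38.3 and 44.0 CPM in the 7-month saline libraries. The 18-month nicotine group held both the highest and the lowest value of its age, and library 2 had 0.276 times the mean of libraries 1 and 3. Npnt codes for nephronectin, a matrix protein that binds the integrin made of Itga8 and Itgb1. It had 39.9, 19.7 and 42.8 CPM in the 18-month nicotine libraries, 25.6, 26.3 and 26.6 CPM in the 18-month saline libraries, 17.6, 22.7 and 20.4 CPM in the 7-month nicotine libraries and 25.5, 23.9 and 28.0 CPM in the 7-month saline libraries. As in Dsp, 18-month nicotine library 2 was the lowest of its age and libraries 1 and 3 the highest.

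Calb1 codes for calbindin, the calcium buffer of mature granule cells, which is known to be low in the dentate gyrus of mice with amyloid and epileptiform activity. It had 90.8, 70.5 and 88.0 CPM in the 18-month nicotine libraries, 70.9, 65.4 and 67.4 CPM in the 18-month saline libraries, 89.2, 103 and 96.6 CPM in the 7-month nicotine libraries and 99.7, 92.9 and 90.1 CPM in the 7-month saline libraries. Calb1 is made by CA1 pyramidal cells and interneurons too. Its 3 saline libraries at 18 months all lay below the 3 saline libraries at 7 months, as in 25.7% of all genes tested. Age and library preparation cannot be told apart in this difference.

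Tdo2 codes for tryptophan dioxygenase, the enzyme that opens the kynurenine pathway, and was the least abundant of the 7, with 34 to 216 counts per library. It had 5.04, 1.59 and 5.58 CPM in the 18-month nicotine libraries, 3.40, 4.68 and 2.90 CPM in the 18-month saline libraries, 5.12, 5.06 and 4.57 CPM in the 7-month nicotine libraries and 5.53, 2.87 and 8.07 CPM in the 7-month saline libraries. The 7-month saline group spanned the whole range of its age. Plk5 is a polo-like kinase family member that has lost kinase activity and is known for its expression in brain. It had 24.0, 17.3 and 28.4 CPM in the 18-month nicotine libraries, 24.6, 22.5 and 21.3 CPM in the 18-month saline libraries, 28.7, 31.4 and 32.1 CPM in the 7-month nicotine libraries and 33.1, 23.9 and 49.6 CPM in the 7-month saline libraries. In Plk5, as in C1ql2 and Tdo2, 7-month saline library 2 was the lowest of its age and library 3 the highest.

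**Figure D1:**
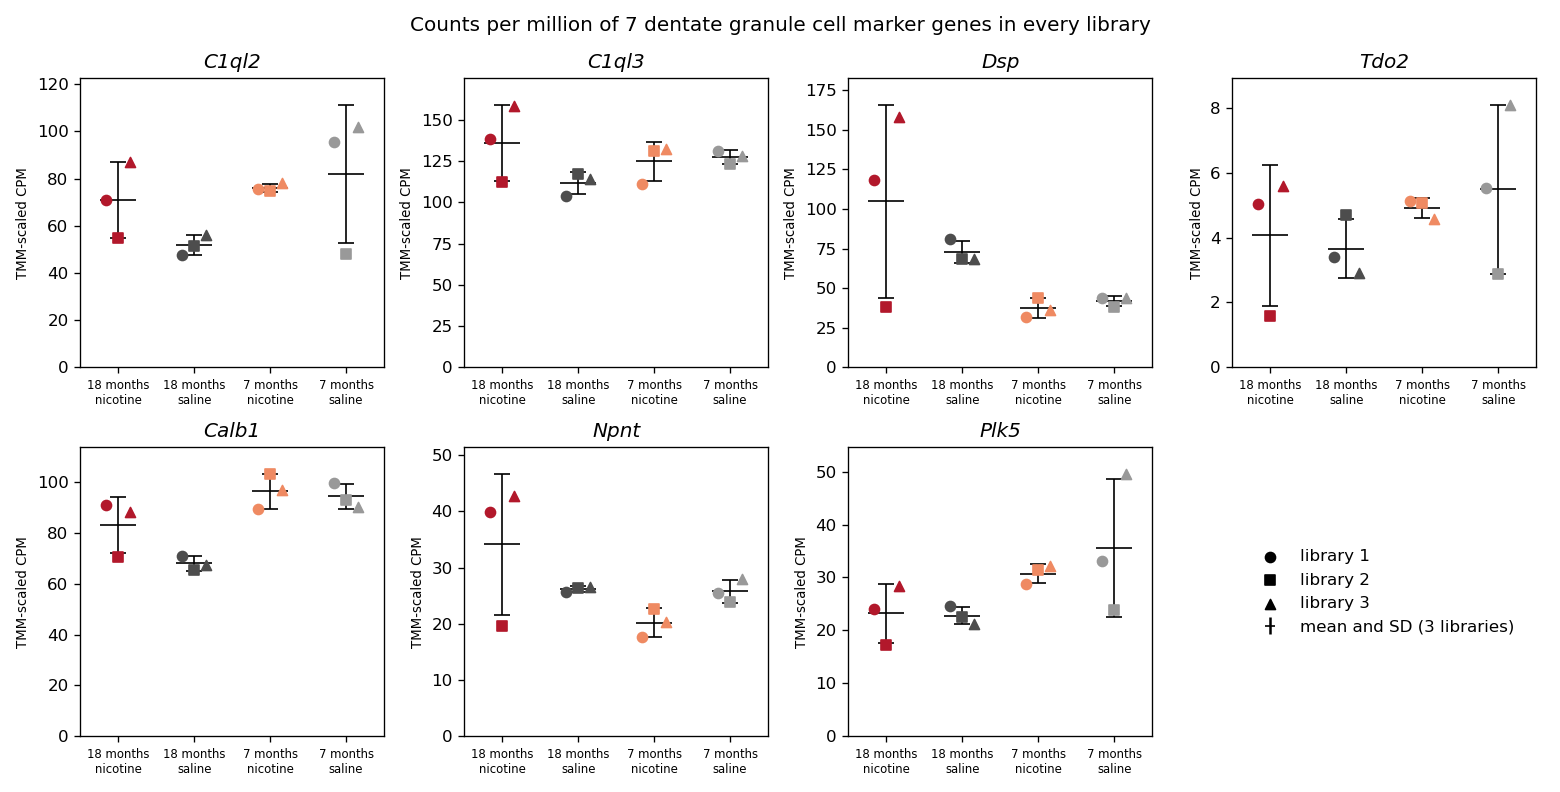
TMM-scaled CPM (y axis, linear from 0) of the 7 marker genes in the 4 groups (x axis). Symbols are the 3 libraries of a group, and bars are the mean and SD over them. At 18 months nicotine library 2 (square) lies low and library 3 (triangle) high in most panels, and in C1ql2, Tdo2 and Plk5 the 7-month saline group has the wide spread.

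Per kilobase of the longest transcript, C1ql3 had the highest level in every group, at 53.7 ± 9.01 CPM per kb in 18-month nicotine, 44.0 ± 2.66 in 18-month saline, 49.1 ± 4.77 in 7-month nicotine and 50.2 ± 1.71 in 7-month saline libraries (SD, n = 3 each). C1ql2 came next on this scale, with 35.4 ± 8.04, 25.9 ± 2.14, 38.1 ± 0.851 and 41.0 ± 14.7 CPM per kb in the same groups and order, and the wide spread in 7-month saline reached the C1ql3 level. Calb1 followed with group means of 16.1 to 22.8 CPM per kb and Plk5 with 10.8 to 16.8. Dsp had 10.9 ± 6.39 CPM per kb in 18-month nicotine and 3.88 ± 0.654 in 7-month nicotine, and Npnt had 7.39 ± 2.72 and 4.37 ± 0.552 in the same groups, so that Dsp overlapped Plk5 in 18-month nicotine libraries and Npnt in every nicotine group. Tdo2 was the lowest, with group means of 1.07 to 1.60 CPM per kb.

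The first comparison asked how nicotine altered the hippocampus at the late stage. At 18 months all 7 genes had a log2 fold change above 0 for nicotine over saline, and none passed edgeR's quasi-likelihood test after Benjamini-Hochberg adjustment. Of all 18196 genes tested 0.0440% passed and 48.1% were above 0. At an unadjusted p under 0.05 the members numbered 3, Calb1, C1ql2 and C1ql3, and 6.73% of all genes did as well; with the Wald test of DESeq2 0 members passed after adjustment. Calb1 averaged 83.1 ± 11 CPM in nicotine and 67.9 ± 2.78 CPM in saline libraries (SD, n = 3 each), a log2 fold change of 0.28 (SE 0.09, edgeR adjusted p = 0.613). C1ql2 averaged 70.9 ± 16.1 CPM in nicotine and 51.9 ± 4.28 CPM in saline libraries, a log2 fold change of 0.43 (SE 0.14, edgeR adjusted p = 0.618). C1ql3 averaged 136 ± 22.8 and 112 ± 6.74 CPM in the same order, a log2 fold change of 0.27 (SE 0.11, edgeR adjusted p = 0.718). The remaining values were 0.51 for Dsp (SE 0.39), 0.37 for Npnt (SE 0.23), 0.14 for Tdo2 (SE 0.39) and 0.01 for Plk5 (SE 0.15). Nicotine and saline libraries overlapped in all 7 genes, where 11.7% of all genes tested had groups that did not overlap.

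The nicotine libraries of that age lay far apart in these genes. The coefficient of variation was higher in nicotine than in saline libraries in 7 of 7 marker genes at 18 months, and in 46.1% of all genes tested. Its median over the 7 was 23.9% in nicotine and 7.27% in saline libraries, against medians over all genes of 7.63% and 8.30%. The other granule cell genes shared this spread: 16 of 18 varied more in nicotine libraries, with medians of 20.4% in nicotine and 6.54% in saline libraries. Npnt had 36.8% in nicotine and 1.88% in saline libraries, and Dsp 58.4% and 9.69% in the same order. The SD of log2 CPM among nicotine libraries was 1.08 for Dsp, 0.98 for Tdo2 and 0.62 for Npnt, larger than in 99.7%, 99.7% and 99.1% of the 14175 genes with a mean log2 CPM of at least 1. These SDs rest on 3 libraries each and carry no test.

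Most of the highest values fell in 1 library. Nicotine library 3 was the highest of the 6 libraries of its age in 6 of 7 marker genes and in 19.3% of all genes, and nicotine library 2 was the lowest in 4 of 7 and in 15% of all genes. On the log2 scale the 7 genes departed from the mean of their age by an average of 0.32, -0.50 and 0.52 in nicotine libraries 1, 2 and 3, and by -0.11, -0.07 and -0.16 in saline libraries 1, 2 and 3. The 18 other granule cell genes, among them the granule cell transcription factor Prox1 and the synaptic adhesion gene Lrrtm4, departed by 0.14, -0.19 and 0.33 in the nicotine and -0.10, -0.07 and -0.11 in the saline libraries. Nicotine library 3 was the highest in 15 of these 18 and nicotine library 2 the lowest in 9. Their summed level was 1130 to 1630 CPM in nicotine and 1170 to 1280 CPM in saline libraries.

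Genes of neighbouring fields and of other cell types were read in the same libraries. The 9 CA1 genes departed from the mean of their age by 0.12, 0.06 and 0.08 in nicotine libraries 1, 2 and 3 and by 0.10, -0.25 and -0.12 in saline libraries 1, 2 and 3. The 7 CA3 genes departed by -0.12, 0.05 and -0.14 in the nicotine and 0.10, -0.05 and 0.16 in the saline libraries, and the 6 mossy cell genes by -0.12, 0.09 and -0.26 in the nicotine and -0.12, 0.12 and 0.29 in the saline libraries. The 4 subiculum genes stood at -0.19, 0.49 and 0.34 in nicotine libraries 1, 2 and 3, high both in library 2, where the marker genes were low, and in library 3, where they were high. In saline libraries 1, 2 and 3 the subiculum genes had -0.53, 0.20 and -0.31. The 6 neocortex genes had -0.21, 0.28 and -0.17 in the nicotine libraries, highest in library 2, where the marker genes were lowest. In the saline libraries the neocortex genes had -0.09, 0.15 and 0.04. The 7 oligodendrocyte genes had -0.06, -0.32 and 0.18 in the nicotine libraries, with their low and high in the same libraries as the marker genes, and 0.13, 0.48 and -0.42 in the saline libraries, which span a wider range. The 10 meningeal genes had 0.40, 0.75 and -0.39 in the nicotine libraries and -0.53, -0.19 and -0.04 in the saline libraries. General neuronal genes varied little, from -0.04 to -0.03 in nicotine and from -0.07 to 0.18 in saline libraries. The part that the make-up of the dissected piece had in the marker gene values was not tested.

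**Figure D2:**
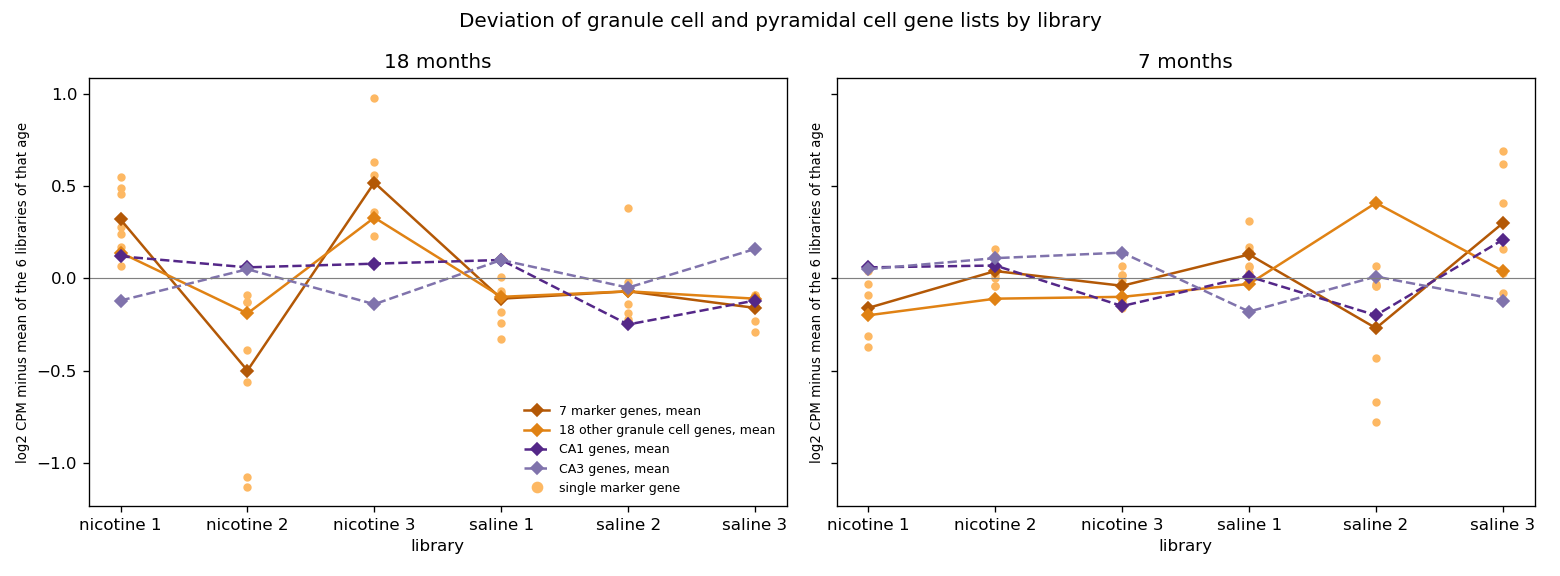
Log2 CPM minus the mean of the 6 libraries of the same age (y axis) by library (x axis), 18 months on the left and 7 months on the right. Points are single marker genes, diamonds are means over the 7 marker genes, the 18 other granule cell genes, the 9 CA1 genes and the 7 CA3 genes. At 18 months both granule cell lists dip in nicotine library 2 and peak in library 3; at 7 months they part in saline library 2, at -0.27 for the marker genes and 0.41 for the other granule cell genes.

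Leaving out libraries moved the 18-month values accordingly. Without nicotine library 2 the log2 fold change of Npnt was 0.65 and passed (edgeR adjusted p = 0.0244). That of Dsp was 0.92 (edgeR adjusted p = 0.0523), that of Calb1 0.39 (edgeR adjusted p = 0.0523) and that of C1ql2 0.59 (edgeR adjusted p = 0.117). Without nicotine library 3 the log2 fold change was 0.18 for Npnt, 0.09 for Dsp, 0.26 for C1ql2, 0.15 for C1ql3 and -0.15 for both Tdo2 and Plk5. Library 2 was the lowest nicotine library in Npnt, Dsp, Calb1 and C1ql2, so leaving it out raised the nicotine mean and narrowed its spread. Npnt passed in 1 of the 6 fits with 1 library left out, and the other marker genes in 0 of 6. Over all genes 5 to 21 passed in these fits. Among the other granule cell genes 18 of 18 were above 0 at 18 months with a median of 0.21, and 0 passed by edgeR. The named members with the smallest p were Maml2 at 0.21, Stxbp6 at 0.28, Smad3 at 0.18 and Trpc6 at 0.20. The 7 marker genes had a median of 0.28, and of all 18196 genes 48.1% were above 0.

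The early stage was compared in the same way. At 7 months 6 of the 7 genes had a log2 fold change below 0 and none passed in edgeR (background 0.0114% of 17596 genes); 0 passed with DESeq2. Npnt was the only member with an unadjusted p under 0.05, which 6.50% of all genes had. Npnt averaged 20.2 ± 2.55 CPM in nicotine and 25.8 ± 2.03 CPM in saline libraries (SD, n = 3 each), a log2 fold change of -0.37 (SE 0.13, edgeR adjusted p = 0.656). Its 3 nicotine libraries lay below its 3 saline libraries, which 8.65% of all genes tested did in that direction. It was the only member whose groups did not overlap at that age.

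None of the other 6 had an unadjusted p under 0.05 at 7 months. Their log2 fold changes were -0.22 for Plk5 (SE 0.23), -0.19 for Dsp (SE 0.14), -0.17 for Tdo2 (SE 0.33), -0.12 for C1ql2 (SE 0.25), -0.05 for C1ql3 (SE 0.11) and 0.02 for Calb1 (SE 0.10). Saline libraries 2 and 3 set those of C1ql2, Tdo2 and Plk5: without saline library 3 they were 0.07, 0.21 and 0.09, and without saline library 2 they were -0.38, -0.47 and -0.43. Among the other granule cell genes 3 of 18 were above 0 with a median of -0.34, and 0 passed by edgeR; without saline library 2 the median was -0.15, with 4 of 18 above 0. Trpc6 had -0.46, Stxbp6 -0.34, Igfbp5 -0.54 and Gsg1l -0.46, and all genes had 48.7% above 0.

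Saline library 2 at 7 months, with its larger share of long transcripts, was the lowest of its age in 3 of the 7 marker genes (42.9%), a share near the 38.3% of all genes that were lowest there. It was the highest in 13 of the 18 other granule cell genes, against 32.7% of all genes. The 3 low ones were C1ql2, Tdo2 and Plk5, at 0.487, 0.423 and 0.579 times the mean of saline libraries 1 and 3. C1ql2 and Plk5 have the shortest transcripts and the highest GC content of the 7, 63.3% and 61.4%, while Tdo2 has 39.6%. The summed level of the other granule cell genes was 737 to 771 CPM in 7-month nicotine and 841 to 1110 CPM in 7-month saline libraries, the top value being that of library 2. The part of transcript length in these values was not tested within this library.

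The nicotine effect over both ages and its difference between them were taken from a fit of all 12 libraries. Averaged over the ages the log2 fold changes were 0.18 for Dsp, 0.17 for C1ql2, 0.16 for Calb1, 0.13 for C1ql3, 0.01 for Npnt, 0.00 for Tdo2 and -0.09 for Plk5, and none passed in edgeR (background 0.0365% of 19171 genes) or in DESeq2. Calb1 was the only member with an unadjusted p under 0.05 (SE 0.07, edgeR adjusted p = 0.704), against 6.86% of all genes. The difference of the effect, 18 minus 7 months, was above 0 in all 7 and in 51.8% of all genes, and none passed in edgeR (background 0.00522%) or in DESeq2. It was 0.74 for Npnt (SE 0.31, edgeR adjusted p = 0.623), the only member with an unadjusted p under 0.05, as 7.85% of all genes had. It was 0.70 for Dsp (SE 0.50), 0.56 for C1ql2 (SE 0.33), 0.32 for C1ql3 (SE 0.16), 0.31 for Tdo2 (SE 0.59), 0.26 for Calb1 (SE 0.14) and 0.24 for Plk5 (SE 0.32). The nicotine effects of the marker genes were thus not shown to differ between the ages.

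**Figure D3:**
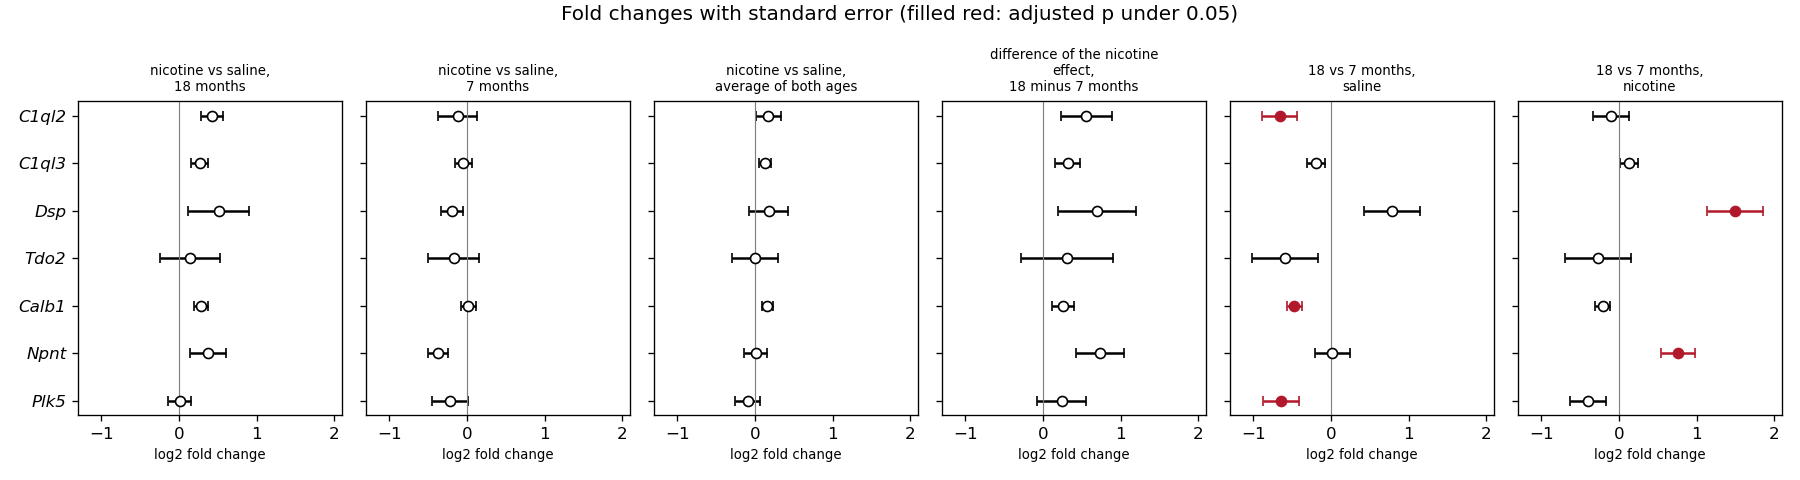
Log2 fold change (x axis) with its standard error for each of the 7 marker genes (rows) in the 6 comparisons (panels), from edgeR. Filled red marks an adjusted p under 0.05. No gene is filled in the 4 nicotine panels; C1ql2, Calb1 and Plk5 are filled below 0 for age in saline mice, and Dsp and Npnt above 0 for age in nicotine mice.

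To ask whether a marker gene moved apart from the rest of the granule cell transcripts, the mean log2 CPM of the 18 other genes was subtracted from it in each library, and nicotine and saline libraries were permuted exactly within age. Over both ages Calb1 stood 1.05 log2 units above those genes in nicotine and 0.85 in saline libraries, a difference of 0.20 (exact two-sided p = 0.035), and C1ql3 stood 1.59 above in nicotine and 1.43 in saline libraries, a difference of 0.16 (exact two-sided p = 0.045). The relative level of Calb1 was 0.62, 0.59 and 0.38 in the 18-month nicotine libraries, 0.51, 0.35 and 0.44 in the 18-month saline libraries, 1.53, 1.64 and 1.54 in the 7-month nicotine libraries and 1.51, 0.98 and 1.30 in the 7-month saline libraries. That of C1ql3 was 1.22, 1.26 and 1.22 in the 18-month nicotine libraries, 1.06, 1.19 and 1.21 in the 18-month saline libraries, 1.84, 1.99 and 1.99 in the 7-month nicotine libraries and 1.91, 1.38 and 1.81 in the 7-month saline libraries. Each was highest under nicotine at 7 months, and 7-month saline library 2 was the lowest of its age in both. In CPM, Calb1 and C1ql3 had 0.978 and 0.946 times the mean of saline libraries 1 and 3 there. The 18 genes subtracted stood 0.41 log2 units above the mean of their age in that library. Without that library the differences were 0.13 (exact p = 0.06) for Calb1 and 0.08 (exact p = 0.105) for C1ql3. Set against the other 6 marker genes in place of the 18, they were 0.12 (exact p = 0.48) for Calb1 and 0.07 (exact p = 0.6) for C1ql3.

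Of 21 such tests, counting each age alone, these 2 had a p under 0.05. Only the tests over both ages, 1 per marker gene, could do so. Within 1 age the smallest p that 20 arrangements allow is 0.1, which 4 tests reached, and over both ages 400 arrangements allow 0.005. With 1 library left out at a time p was 0.05 or more in 8 of 12 cases for Calb1 and in 9 of 12 for C1ql3. The other 5 genes had differences over both ages of 0.24 (C1ql2), 0.10 (Dsp), 0.02 (Tdo2 and Npnt) and -0.03 (Plk5), each with an exact p of 0.375 or more. With 1 library left out p was 0.05 or more in 12 of 12 cases for the first 4 of these genes and in 11 of 12 for Plk5, which had -0.22 (exact p = 0.015) without 7-month saline library 2. The relative level shifted with age in the same libraries: for C1ql2 it was 0.28 in 18-month nicotine, 0.05 in 18-month saline, 1.24 in 7-month nicotine and 0.99 in 7-month saline libraries on average, and for Plk5 -1.33, -1.13, -0.07 and -0.20 in the same order. On average it was also lower at 18 months in C1ql3, Calb1, Tdo2 and Npnt under both treatments. In Dsp it was higher, at 0.64, 0.53, 0.19 and 0.10 in the same order. The mean log2 CPM of the 18 genes subtracted was itself 5.56 to 6.08 at 18 months and 4.95 to 5.56 at 7 months.

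Age was compared within nicotine and within saline mice, where 59.3% and 46.1% of 19171 genes passed in edgeR. Under saline 3 of the 7 marker genes passed, all lower at 18 months, as did 24.6% of all genes in that direction. Calb1 fell to 67.9 ± 2.78 CPM at 18 months, against 94.2 ± 4.91 CPM at 7 months (SD, n = 3 each), a log2 fold change of -0.47 (SE 0.10, edgeR adjusted p = 0.00298). C1ql2 averaged 51.9 ± 4.28 CPM at 18 months and 82.0 ± 29.5 CPM at 7 months, a log2 fold change of -0.66 (SE 0.23, edgeR adjusted p = 0.0354). Plk5 averaged 22.8 ± 1.66 CPM at 18 months and 35.5 ± 13 CPM at 7 months, a log2 fold change of -0.64 (SE 0.23, edgeR adjusted p = 0.0363). In C1ql2 and Plk5 the ages overlapped, because of 7-month saline library 2.

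The remaining genes did not pass under saline. Dsp had a log2 fold change of 0.79 (SE 0.36, edgeR adjusted p = 0.0874), with its 18-month libraries all above its 7-month libraries, as in 24.0% of all genes. C1ql3 had -0.19 (SE 0.12, edgeR adjusted p = 0.197), with its 18-month libraries all below, as in 25.7% of all genes. Tdo2 had -0.59 (SE 0.42) and Npnt 0.02 (SE 0.22). With 1 library left out at a time Calb1 passed in 12 of 12 fits, and C1ql2 and Plk5 in 7 of 12 each. Without 7-month saline library 3 the value was -0.46 for C1ql2 and -0.31 for Plk5, and without 7-month saline library 2 it was -0.90 and -0.83.

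Under nicotine 2 of the 7 passed, Dsp and Npnt, both higher at 18 months, as were 29.5% of all genes. Dsp averaged 105 ± 61.3 CPM at 18 months and 37.3 ± 6.28 CPM at 7 months (SD, n = 3 each), a log2 fold change of 1.49 (SE 0.36, edgeR adjusted p = 0.00366). Npnt averaged 34.2 ± 12.6 CPM at 18 months and 20.2 ± 2.55 CPM at 7 months, a log2 fold change of 0.76 (SE 0.22, edgeR adjusted p = 0.0105). In both genes 18-month nicotine library 2 fell within the 7-month range. Dsp passed in 12 of 12 fits with 1 library left out, between 1.04 without 18-month nicotine library 3 and 1.89 without 18-month nicotine library 2, and Npnt in 11 of 12, the exception being the fit without 18-month nicotine library 3, at 0.54 (edgeR adjusted p = 0.0662). Plk5 had -0.40 (SE 0.23), with its 18-month libraries all below its 7-month libraries, as in 34.5% of all genes, Tdo2 had -0.27 (SE 0.42), Calb1 -0.21 (SE 0.10), C1ql2 -0.10 (SE 0.23) and C1ql3 0.13 (SE 0.12). The age effects under nicotine and saline share no samples, and the test of their difference is that of the nicotine effect between ages given above, which no member passed.

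Transcript length and GC content differ among the 7 genes, and the ages differ in the share of long transcripts, so the fits were repeated with offsets for both. Under saline the log2 fold change of Calb1 was then -0.47 (edgeR adjusted p = 0.0128), that of C1ql2 -0.37 (adjusted p = 0.115), that of Plk5 -0.34 (adjusted p = 0.171) and that of Dsp 0.14 (adjusted p = 0.805). Fits of the same genes without offsets gave -0.41 for Calb1 (adjusted p = 0.00677), -0.59 for C1ql2 (adjusted p = 0.0558) and -0.57 for Plk5 (adjusted p = 0.0581). Under nicotine Dsp had 0.66 with the offsets (adjusted p = 0.171) and Npnt 0.51 (adjusted p = 0.0832), while C1ql3 at 0.43 (adjusted p = 0.0116) and Calb1 at -0.40 (adjusted p = 0.0215) passed. C1ql2 and Plk5 turned direction there, to 0.37 and 0.09. Calb1 was therefore the only member below 0 and past the threshold under saline both with and without the offsets.

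**Figure D4:**
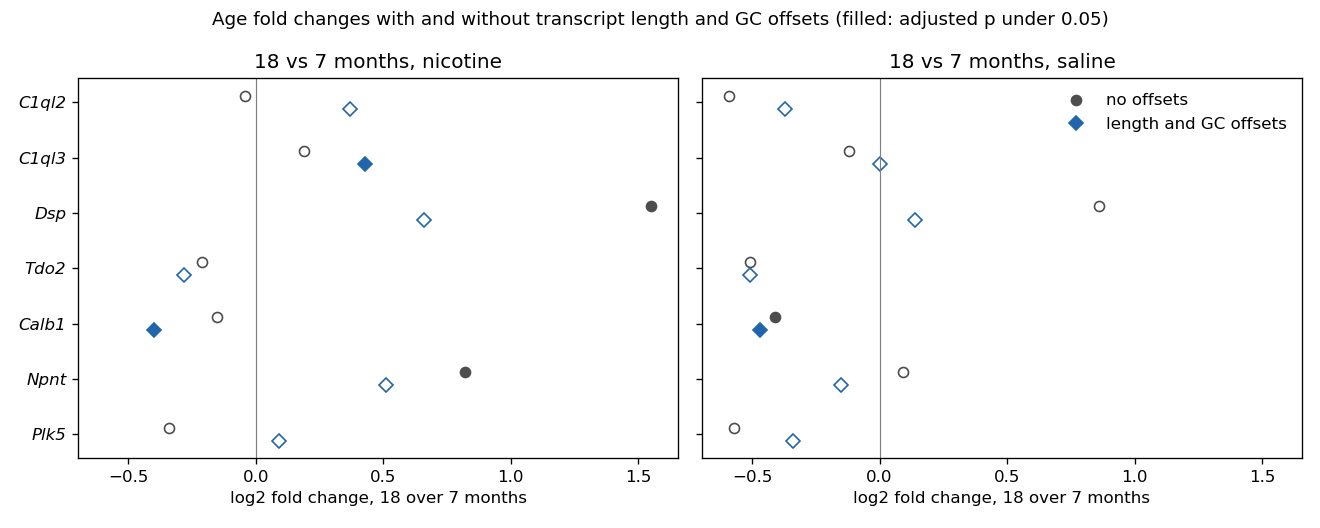
Log2 fold change of 18 over 7 months (x axis) for the 7 marker genes (rows) in nicotine mice on the left and saline mice on the right, in the same genes without offsets (circles) and with offsets for transcript length and GC content (diamonds). Filled symbols have an adjusted p under 0.05. Under nicotine Dsp is at 0.66 with the offsets, and under saline Calb1 is at -0.47 with and -0.41 without them, filled in both.

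Among the other granule cell genes more were higher than lower with age. Under nicotine 14 of 18 were higher at 18 months and 0 lower, against 29.5% of all genes higher and 29.8% lower, led by Maml2 at 1.24, Tiam1 at 1.30, Igfbp5 at 1.08 and Sema5a at 1.41. Under saline 7 were higher and 4 lower, against 21.5% and 24.6% of all genes, among them Maml2 at 1.03, Tiam1 at 0.74 and Il16 at 0.44 above 0 and Gsg1l at -0.59 below 0. Their medians were 0.79 under nicotine and 0.42 under saline, and those of the marker genes -0.10 and -0.47. The 2 lists were not tested against each other. The age values of the other granule cell genes are from the fits without length and GC offsets. The part of transcript length in these values was not tested.

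Genes that work with the products of the marker genes were examined by list, also in the fits without length and GC offsets. Their counts with age stand against 59.3% of all genes past the threshold under nicotine, 29.5% higher and 29.8% lower, and 46.1% under saline, 21.5% higher and 24.6% lower, and with lists this short no count is read as particular to a list. For the C1q-like pair these were family members and receptors, of which 12 were tested. With age under nicotine 5 were higher and 1 was lower, the neurexin Nrxn3 at 0.83 and the adhesion receptor Bai3 at 0.57 among the first, and C1ql1 at -0.58 as the last. Under saline 5 were higher and 3 lower, with Nrxn3 at 0.63, Bai3 at 0.36 and Nrxn2 at 0.39 among the higher ones. With nicotine 0 of the 12 passed at either age by edgeR, the median being -0.01 at 18 months and -0.11 at 7 months. Grik4, the kainate receptor subunit of mossy fibre synapses, had -0.26 at 18 months (SE 0.08) and 0.28 at 7 months (SE 0.13).

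Desmosome genes gave 0 of 7 passing with nicotine at 18 months and 0 of 8 at 7 months by edgeR. With age under nicotine the periplakin gene Ppl at 0.73 and Pkp4 at 0.47 were higher and the plakoglobin gene Jup at -0.52 was lower, and under saline these 3 had 0.76, 0.34 and -0.50, each past the threshold. Of the 8 nephronectin partners and related matrix genes 5 were higher with age under nicotine, led by Fras1 at 1.41, Itgb3 at 1.12, Frem2 at 1.63 and Itga8 at 0.63, and 3 under saline, Itgb3 at 0.92, Fras1 at 0.85 and Itgav at 0.60. None of the 8 passed with nicotine at either age by edgeR, and all 8 were below 0 at 7 months, with a median of -0.34, as was Npnt. On the log2 scale these 8 departed from the mean of their age by 0.00, -0.33 and -0.20 in 7-month nicotine and by -0.15, 0.53 and 0.16 in 7-month saline libraries 1, 2 and 3, and without saline library 2 the median was -0.16, with 6 of 8 below 0.

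The calcium-binding proteins other than calbindin were lower with age in 4 of 6 genes under nicotine, Pvalb at -1.57, Necab2 at -1.11, Necab3 at -0.93 and Calb2 at -1.73, and in 4 of 6 under saline, Pvalb at -1.38, Necab3 at -0.96, Necab2 at -0.45 and Scgn at -1.41. With nicotine 0 of 6 passed at either age by edgeR. Among kynurenine pathway genes Ccbl1 at -0.86 and Ccbl2 at -0.61 were lower and Haao at 1.09 was higher with age under nicotine, and Ccbl1 at -0.51 was lower and Afmid at 0.52 higher under saline, of 6 tested. None of 5 passed with nicotine at either age by edgeR. None of the 4 other polo-like kinases, Plk1 to Plk4, passed in any of these comparisons by edgeR.

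The genes whose library-to-library pattern was most like the mean of the 7 marker genes were Zcchc5, Bcar1, Capn3, Haus3 and Prosc, with Pearson r of 0.955, 0.947, 0.943, 0.930 and 0.928. The correlation was taken over departures from group means in 12 libraries, among 12604 genes, and the libraries share their depth and make-up. Of the 18 other granule cell genes 2 ranked in the first 200, the median rank was 4493 and 4 had r below 0. Lct was at rank 6 (r = 0.925) and Lrrtm4 at rank 14 (r = 0.905), while Prox1 ranked 3874 (r = 0.301) and Trpc6 9108 (r = -0.252). Among single members, Dsp and Npnt were each the gene most like the other (r = 0.972). The gene most like C1ql2 was Nob1 (r = 0.969), that most like C1ql3 was Slc9a5 (r = 0.960), that most like Tdo2 was Mcm6 (r = 0.992), that most like Calb1 was Sf3b3 (r = 0.947) and that most like Plk5 was Clvs2 (r = 0.976). Each is the top of many correlations over 12 libraries, and how high such a top value runs by chance was not tested. The correlation of a member with the mean of the others ran from 0.682 (C1ql2) to 0.930 (Npnt). Without 18-month nicotine library 2 it was lower in every member, from 0.425 (Calb1) to 0.859 (Npnt).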

How the data were processed

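RNA of 12 hippocampal libraries was measured as raw counts per gene, deposited by the authors in 1 table per age with no normalization. Reads were aligned with TopHat to GRCm38, per the submitters' processing notes; the counting tool and strand setting are not given in the sources used here. The labels' protocol text describes a small RNA kit, while the counts cover mRNA. The tables hold 44786 genes (18 months) and 44788 genes (7 months), of which 44760 were joined by name. Lengths, GC content and positions came from GENCODE M21 and promoters from RefSeq.

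R 4.3.3 with edgeR 4.0.16 was used for tests on the counts (filterByExpr, TMM, quasi-likelihood F-test, Benjamini-Hochberg over all genes, threshold 0.05), within age on 6 libraries, or on 12 libraries with 4 group means. Each SE is the size of the log2 fold change over the root of its F value. Common dispersions were 0.00956 (18 months), 0.0417 (7 months) and 0.0269 (12 libraries). Counting error alone is covered by statements on depth. Log2 CPM used a prior count of 2. Length and GC offsets came from splines with 4 degrees of freedom over the genes past the filter that had a length. Of all joined genes 30971 had a length. DESeq2 1.42.0 was an alternative. The procedure was tested on simulated data.

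The members, lists, tests and alternatives were chosen with earlier results of these data known. Genes named besides the 7 are, per list, up to 4 with the smallest p, the 5 most like the mean of the members and the 1 most like each member; Prox1 and Lrrtm4 as list examples and the ranks of Lct, Lrrtm4, Prox1 and Trpc6 were chosen after their values were seen. A gene that this rule names is not reported here. Figures used Python 3.11.15 and matplotlib 3.10.9.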

Additional observations from a re-analysis of the deposited data

How the results depend on the processing

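Calb1 was lower with age under saline and past the threshold in every alternative run, from -0.58 with offsets and without 7-month saline library 2 to -0.41, and 0 marker genes passed for nicotine in any alternative with all libraries kept. RLE size factors left every count of marker genes past the threshold as it was. Over all genes 8 passed for nicotine at 18 months, 2 for nicotine at 7 months, 7 in the average, 1 in the difference, 8844 for age under saline and 11368 for age under nicotine. Without a filter on low counts the first 3 were 35, 6 and 15, and Npnt with age under saline had -0.01. With DESeq2 the first 4 were 57, 81, 80 and 37. In 1 fit of all 12 libraries the first 2 were 0 and 9.

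With replicate number as a block they were 9, 1, 5, 0, 8511 and 11017, Plk5 with nicotine at 18 months had -0.01, and the count of marker genes past the threshold was 3 with age under saline and 2 under nicotine, as without it. Same-numbered libraries departed from their group means with correlations of -0.152, -0.207 and -0.142 at 18 months and 0.125, -0.0626 and -0.0885 at 7 months, so the numbers were not treated as pairs. Both libraries numbered 1 at 7 months have column names that begin with another code than the rest of that age. What the code stands for is not known here.

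With length and GC offsets the average gave 12 genes, and 1 marker gene passed with age under saline, as in the same genes without offsets (1). Directions turned for Tdo2 in the average (0.02), for C1ql3 (0.00) and Npnt (-0.15) with age under saline and for C1ql2 (0.37) and Plk5 (0.09) with age under nicotine. With these offsets and without 7-month saline library 2, an alternative chosen after seeing the data, nicotine at 7 months gave 0 genes, the average 23 and the difference 2. Npnt then had 0.00 in the average, and C1ql3 0.06, Dsp -0.07 and Npnt -0.25 with age under saline, and C1ql2 0.37 and Plk5 0.10 with age under nicotine.

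Without both first 7-month libraries nicotine at 7 months gave 0 genes, the difference 2 and age under saline 5852, with 1 marker gene past the threshold for age under saline and 1 under nicotine, and C1ql2 and C1ql3 had 0.01 and 0.05 with nicotine at 7 months. Without 7-month saline library 2 and nicotine library 1 the counts were 1 (nicotine, 7 months), 43 (average) and 6 (difference), C1ql3 had 0.03 with nicotine at 7 months and Npnt 0.00 with age under saline. Without both 7-month libraries numbered 3 they were 5 (nicotine, 7 months), 3 (difference) and 5867 (age, saline), with 1 marker gene past the threshold for age under saline. There C1ql2, Tdo2, Calb1 and Plk5 had 0.05, 0.26, -0.03 and 0.05 with nicotine at 7 months, Tdo2 and Plk5 had 0.21 and 0.05 in the average and -0.12 and -0.05 in the difference. With the other 6 marker genes in place of the 18, the relative level of Calb1 differed by 0.12 (exact p = 0.48), that of C1ql3 by 0.07 (exact p = 0.6) and those of Tdo2 and Npnt by -0.10 each.

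With 1 library left out at a time the counts over all genes ranged from 5 to 21 for nicotine at 18 months, 0 to 2 for nicotine at 7 months, 2 to 21 in the average, 0 to 3 in the difference, 6251 to 11793 for age under saline and 10137 to 12688 for age under nicotine. Marker genes past the threshold numbered 0 to 1 for nicotine at 18 months, 1 to 4 for age under saline and 1 to 3 for age under nicotine. Nicotine values whose direction turned ranged at 18 months from -0.15 to 0.52 (Tdo2) and -0.15 to 0.19 (Plk5), at 7 months from -0.38 to 0.07 (C1ql2), -0.09 to 0.03 (C1ql3), -0.47 to 0.21 (Tdo2), -0.03 to 0.07 (Calb1) and -0.43 to 0.09 (Plk5), in the average from -0.04 to 0.38 (Dsp), -0.16 to 0.19 (Tdo2), -0.08 to 0.15 (Npnt) and -0.20 to 0.07 (Plk5), and in the difference from -0.10 to 0.70 (Tdo2) and -0.11 to 0.44 (Plk5). Age values that did so ranged from 0.00 to 0.09 (Npnt, saline), -0.30 to 0.05 (C1ql2, nicotine), -0.01 to 0.24 (C1ql3, nicotine) and -0.58 to 0.11 (Tdo2, nicotine). Relative levels that did so ranged from -0.04 to 0.34 (Dsp), -0.25 to 0.23 (Tdo2), -0.08 to 0.12 (Npnt) and -0.22 to 0.13 (Plk5). The causes of these shifts were not tested. Tdo2, with 34 to 216 counts per library, is the gene most limited by depth.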

Other observations

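Genes of newborn granule cells and their precursors, which sit at the inner edge of the same layer, were measured beside the mature markers. At 18 months 7 of 8 had a log2 fold change below 0 for nicotine over saline, with a median of -0.32, and 0 passed by edgeR. Sox2, a stem cell transcription factor, had -0.45 with its nicotine libraries all below its saline libraries (SE 0.10, edgeR adjusted p = 0.404). Sox11, a factor of immature neurons, had 0.29 with its nicotine libraries all above its saline libraries (SE 0.08, edgeR adjusted p = 0.561). Groups did not overlap, in either direction, in 11.7% of all genes tested at that age. At 7 months 8 of 9 newborn cell and precursor genes were below 0, with a median of -0.29, and 0 passed. Their 11 listed genes departed from the mean of that age by -0.10, -0.27 and -0.22 in nicotine and by -0.14, 0.58 and 0.15 in saline libraries 1, 2 and 3, and without saline library 2 the median was -0.06, with 5 of 10 tested below 0. Igfbpl1 had -2.21 (SE 0.50, edgeR adjusted p = 0.651) and Sox11 -0.44 (SE 0.15, edgeR adjusted p = 0.656). With age Mki67, the proliferation marker, was higher at 18 months under nicotine, at 1.1, and under saline, at 1.00, and Sox11 under nicotine, at 0.93 (edgeR adjusted p = 8.93e-05). Age and library preparation cannot be told apart here either.

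Genes that separate the dorsal from the ventral pole of the dentate gyrus gave 3 of 7 above 0 at 18 months and 4 of 7 at 7 months for nicotine over saline, and 0 passed by edgeR at either age. Lct had 0.43 at 18 months (SE 0.27) and -0.47 at 7 months (SE 0.18), and Nr2f2 had -0.56 (SE 0.26) and 0.33 (SE 0.40).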
